A study of Mus musculus with 17 samples.

Results

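Siglecs and TREMs are cell-surface receptors by which myeloid cells are restrained or activated, and 9 genes of these families and their adaptor were followed across 6 groups of mouse cells: Siglece, Cd33, Siglecf, Siglec1, Cd22, Trem1, Trem3, Trem2 and Tyrobp. They were the genes named for this set, and every probe set annotated to exactly 1 of these symbols was taken, which gave 14 of the 45037 probe sets and 9 of the 17097 genes with such a probe set. The genes were chosen by measured values of these same arrays, in 3 differences: Siglece and Trem3 between IRF8 knockout and wild-type progenitors, and Siglecf between VENUS-negative and VENUS-positive progenitors. Those 3 differences are therefore given as descriptions with no test.

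Each array held RNA from 1 pool of sorted cells, measured on Affymetrix mouse arrays and deposited as RMA-normalised log2 levels. In all, 3 pools were wild-type spleen macrophages sorted as CD11c- CD11b+ MCSFR+ and 3 were wild-type spleen granulocytes sorted as CD11c- CD11b+ Ly6C+ MCSFR-. The others were bone marrow macrophage and dendritic cell progenitors (MDPs), sorted as lineage- sca1- CD127- CD117+ MCSFR+: 3 pools labelled IRF8 knockout, 3 wild-type pools, 2 pools negative for an IRF8-VENUS reporter and 3 pools positive for it. Both reporter groups carry the genotype label IRF8-deficient, and the labels do not say whether this refers to the reporter allele. The mice were 6 to 10 weeks old, with 5 mice in each spleen, wild-type and knockout pool and no number given for the reporter pools. Because each pool is a bulk sample, fewer cells of a type and less RNA per cell cannot be told apart. All p-values reflect pool-to-pool spread, and precision is limited by how many arrays each group has.

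Siglecs bind sialic acids on glycoproteins and glycolipids. Most members of the CD33-related branch carry cytoplasmic ITIM motifs, which recruit phosphatases such as SHP-1 and dampen activation. TREM receptors have short cytoplasmic tails and signal through the adaptor DAP12, encoded by Tyrobp, whose ITAM recruits the kinase Syk. IRF8 is a transcription factor that MDPs need to form monocytes and dendritic cells, and mice without it accumulate granulocytes.

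The promoter windows of the members with high granulocyte levels are shown because those genes were high in the same arrays. RefSeq held windows for 6 of the 9 genes (GRCm38.p6, the 250 bases before the start, printed on the gene's strand), and 4 are given. Capitals mark the ETS core AGGAAG or its reverse complement CTTCCT, the core bound by PU.1, a partner of IRF8.
Siglece chr7:43660162-43660411 (minus strand): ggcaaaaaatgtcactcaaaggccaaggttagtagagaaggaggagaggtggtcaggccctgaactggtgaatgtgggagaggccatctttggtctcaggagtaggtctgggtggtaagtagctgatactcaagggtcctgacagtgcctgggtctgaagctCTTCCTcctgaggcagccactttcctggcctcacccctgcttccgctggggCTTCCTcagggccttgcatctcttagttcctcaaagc
Cd33 chr7:43533172-43533421 (minus strand): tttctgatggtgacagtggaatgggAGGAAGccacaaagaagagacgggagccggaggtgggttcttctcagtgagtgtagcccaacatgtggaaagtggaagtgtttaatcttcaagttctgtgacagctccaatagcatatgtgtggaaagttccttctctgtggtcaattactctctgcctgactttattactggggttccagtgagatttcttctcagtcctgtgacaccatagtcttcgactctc
Trem1 chr17:48232489-48232738 (plus strand): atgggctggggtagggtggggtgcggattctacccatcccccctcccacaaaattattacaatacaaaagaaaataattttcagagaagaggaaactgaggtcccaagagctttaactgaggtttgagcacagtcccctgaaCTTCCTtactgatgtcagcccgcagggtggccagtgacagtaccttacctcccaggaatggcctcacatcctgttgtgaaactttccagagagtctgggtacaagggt
Siglecf chr7:43351091-43351340 (plus strand): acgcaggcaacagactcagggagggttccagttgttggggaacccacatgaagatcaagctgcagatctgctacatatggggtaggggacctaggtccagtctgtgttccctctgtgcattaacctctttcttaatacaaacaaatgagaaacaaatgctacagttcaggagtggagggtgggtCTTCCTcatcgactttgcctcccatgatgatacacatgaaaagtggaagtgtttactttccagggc

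The ETS core was present in 5 of these 6 windows (Siglece, Cd33, Trem1, Siglecf and Trem2, not Cd22), against 29.5% of the 32851 promoter windows of the table. Siglece had 2 matches, at bases 88 to 83 and 37 to 32 before the start. This motif was searched after 5 others, on both strands, had no match in the 6 windows: the longer PU.1 site GAGGAAGT, which contains the ETS core and was in 2.44% of all windows, the ETS-IRF composite element (2.30%), an interferon response element (2.98%), a C/EBP site TTGCNNAA (9.56%) and a GATA site AGATAA (9.99%). A match describes letters in a window and not binding. Trem1 lies next to Trem3 on chromosome 17, and Tyrobp next to Hcst, Siglecf next to Siglecg and Cd22 next to Mag on chromosome 7.

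Array medians lay between 4.33 and 4.48 and lower quartiles between 3.18 and 3.42, so a level near 3 to 4 is that of a dim probe set. Correlations between arrays of 1 group were between 0.959 and 0.992. Csf1r, which encodes the MCSFR used in the sort, had 5.09 and 4.83 in VENUS-negative MDPs, against 7.63 to 8.05 in VENUS-positive MDPs. Irf8 had 10.32, 10.42 and 10.18 in the knockout-labelled pools, against 10.27, 10.56 and 10.19 in the wild-type pools. Where this probe set lies relative to the deletion is not known here, so its level does not check the label. The same probe set had 5.49 and 6.25 in VENUS-negative MDPs, against 10.72, 10.81 and 11.10 in VENUS-positive MDPs. Wild-type pool 3 stood apart: the mean of 10 neutrophil markers was 8.34 there, against 4.84 and 4.59 in the other wild-type pools, and that of 10 eosinophil, basophil and mast cell markers was 6.98, against 4.28 and 4.30.

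**Figure D1:**
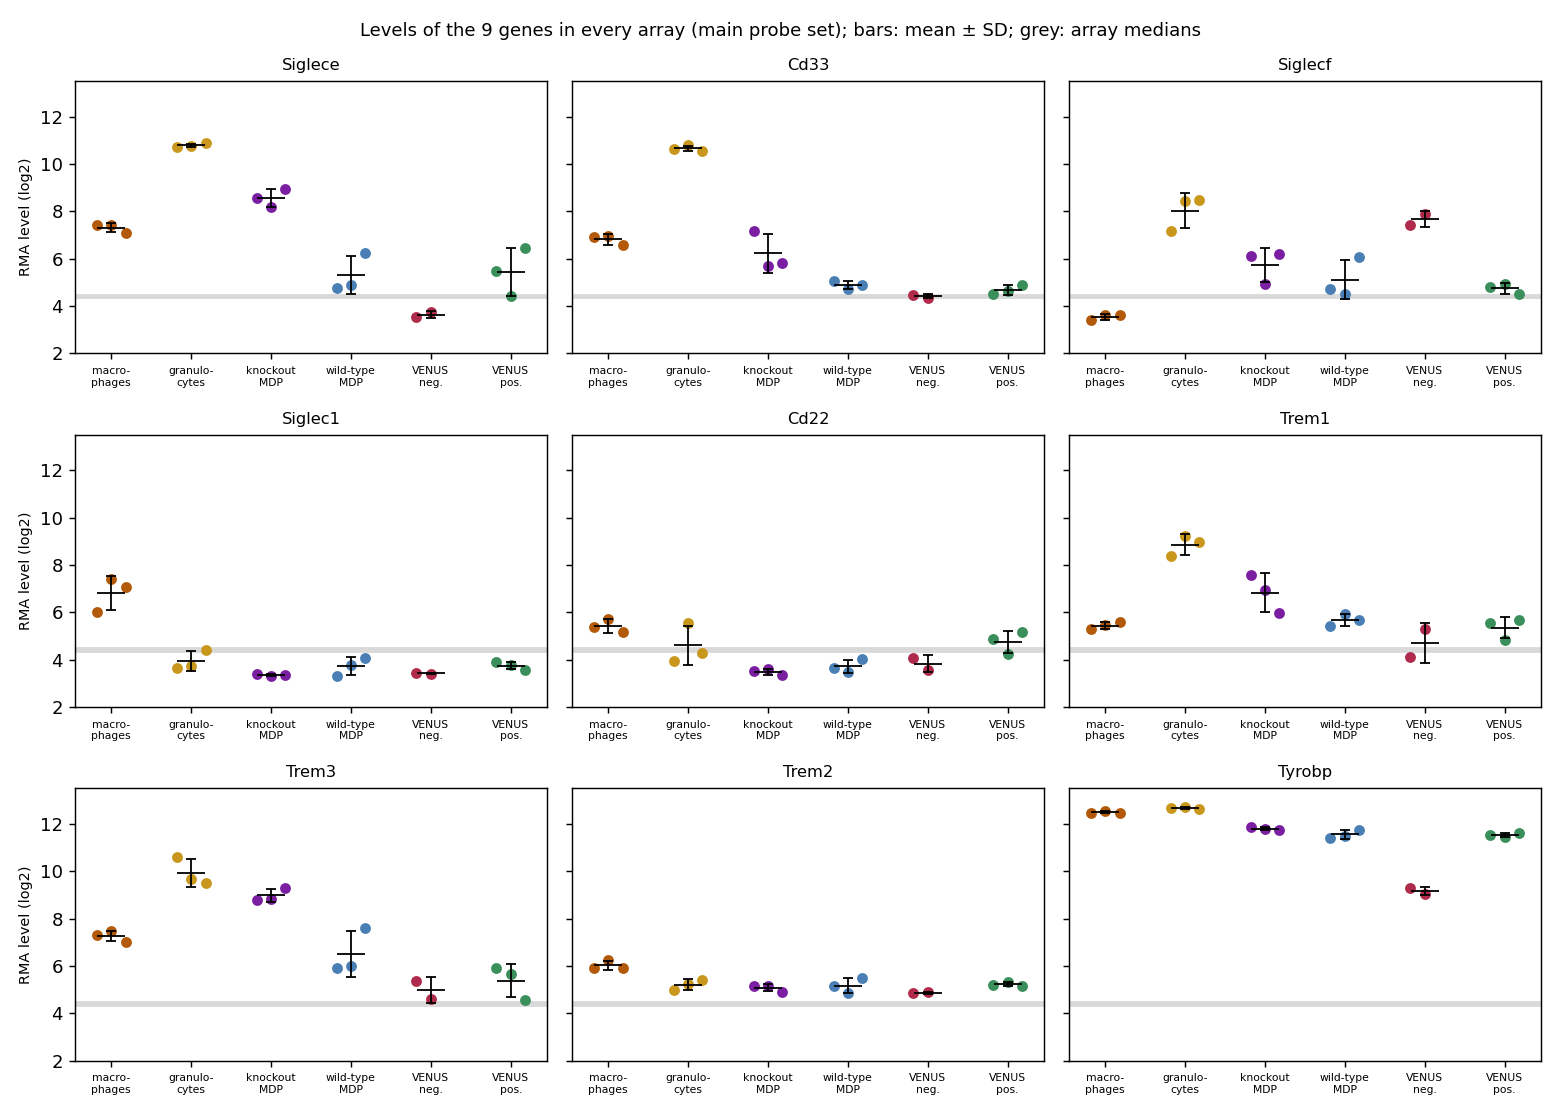
RMA levels (log2) of the 9 genes by their brightest probe set, one point per array, with group mean ± SD and array medians in grey. VENUS-negative MDPs lay below every other group for Tyrobp, and for Siglecf they lay above the other MDPs and within the range of granulocytes.

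By group mean, granulocytes were highest for 6 of the genes and macrophages for 3. Siglece encodes Siglec-E, an inhibitory Siglec of mouse neutrophils and macrophages. Its levels were 8.56, 8.17 and 8.94 in knockout-labelled MDPs, against 4.78, 4.90 and 6.26 in wild-type MDPs. All 3 knockout-labelled pools lay above every wild-type pool, pool 3 included, by a mean difference of 3.24 (SE 0.43), or 9.46-fold. Without wild-type pool 3 the difference was 3.71. In the reporter progenitors the levels were 3.53 and 3.73 in VENUS-negative MDPs, against 5.46, 4.41 and 6.43 in VENUS-positive MDPs. These groups did not overlap, and the difference of -1.81 (SE 0.49, 95% interval -2.85 to -0.77) missed the threshold with limma's adjusted p = 0.0510. Without VENUS-positive pool 2, the lowest of its group, it was -2.32 with an adjusted p of 0.00741. That pool lay nearest to the VENUS-negative levels, so leaving it out widened the difference. Among mature cells, Siglece had 7.42, 7.43 and 7.10 in macrophages and 10.71, 10.77 and 10.86 in granulocytes. Macrophages were 11.0-fold lower than granulocytes (log2 difference -3.47, SE 0.43, limma adjusted p = 3.79e-05), and both were higher than wild-type MDPs, by 4.01-fold in macrophages (adjusted p = 0.00404) and 44.2-fold in granulocytes (adjusted p = 2.32e-07). Knockout-labelled MDPs thus ranked between granulocytes and macrophages, and only VENUS-positive and wild-type MDPs overlapped as neighbours in the order of levels. The wild-type arrays also took part in choosing Siglece, so its p-values against them are not independent of that choice.

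Cd33 encodes a CD33-related Siglec of myeloid cells. Knockout-labelled MDPs had 7.17, 5.68 and 5.84, against 5.04, 4.74 and 4.91 in wild-type MDPs. The groups did not overlap, and the difference of 1.33 (SE 0.29, 95% interval 0.72 to 1.95, 2.52-fold) missed the threshold with limma's adjusted p = 0.0610. Without knockout pool 1, the highest, the difference was 0.86 with an adjusted p of 0.0332. Without knockout pool 2, the lowest, it was 1.61 with an adjusted p of 0.0288. Not every pool left out gave a call. Levels in VENUS-negative MDPs were 4.48 and 4.36, against 4.50, 4.64 and 4.88 in VENUS-positive MDPs, a difference of -0.25 (95% interval -0.94 to 0.44, adjusted p = 0.830), all close to the array medians. The gene was brightest in granulocytes: macrophages had 6.89, 6.97 and 6.56, against 10.64, 10.78 and 10.57 in granulocytes. The macrophage level was 14.4-fold lower (adjusted p = 3.02e-07), and the granulocyte level was 54.5-fold higher than that of wild-type MDPs (log2 difference 5.77, SE 0.29, adjusted p = 2.92e-09).

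Siglecf encodes Siglec-F, known from mouse eosinophils and alveolar macrophages. In VENUS-negative MDPs it had 7.44 and 7.90, against 4.82, 4.95 and 4.50 in VENUS-positive MDPs, a difference of 2.91 (SE 0.48), or 7.53-fold. Both VENUS-negative pools lay within the range of granulocytes, which had 7.17, 8.42 and 8.49. Macrophages were at the other end with 3.40, 3.64 and 3.62, below the array medians, and fell below granulocytes by 4.47 on the log2 scale (SE 0.43, limma adjusted p = 3.19e-06). Knockout-labelled MDPs had 6.10, 4.92 and 6.19, against 4.74, 4.53 and 6.06 in wild-type MDPs, and these groups overlapped (difference 0.63, 95% interval -0.29 to 1.55, adjusted p = 0.837). Without wild-type pool 3, the highest of its group, the difference was 1.10 (adjusted p = 0.430) and the groups no longer overlapped. The macrophage level was below that of wild-type MDPs by a log2 difference of -1.55 (adjusted p = 0.0192), a call lost without wild-type pool 3 (-1.08, adjusted p = 0.0935) and without macrophage pool 1 (-1.48, adjusted p = 0.0669).

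Eosinophil, basophil and mast cell markers moved with Siglecf in the reporter pools, and their part in the result was not tested. The mean of the 10 markers was 6.79 and 6.73 in VENUS-negative MDPs, against 4.10 to 4.27 in VENUS-positive MDPs. Of the 10, 4 were called higher and none lower, where 5.40% of all genes were called. Ms4a2, a chain of the high-affinity IgE receptor of mast cells and basophils, had 7.59 and 8.90 in VENUS-negative MDPs, against 2.55 to 2.98 in VENUS-positive MDPs. Granulocytes, where Siglecf was highest, had a marker mean of 4.85 to 5.33.

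Siglec1 encodes sialoadhesin, or CD169, a receptor of tissue macrophages without an ITIM. Its main probe set had 6.00, 7.38 and 7.06 in macrophages, against 3.66, 3.74 and 4.41 in granulocytes. Macrophages were higher by 2.88 on the log2 scale (SE 0.30, limma adjusted p = 6.88e-06), and by 3.08 against wild-type MDPs (adjusted p = 4.93e-06). No group but macrophages had a mean over the array medians, so no fold is given. A second probe set was also higher in macrophages than in granulocytes, by 1.44 (adjusted p = 7.98e-05), while the other probe set was dim in every array, with 2.43, 2.81 and 3.02 in macrophages, against 3.06, 3.02 and 2.96 in granulocytes (-0.26, adjusted p = 0.245). Cd22 encodes an inhibitory Siglec of B cells and was low throughout, with 5.37, 5.73 and 5.15 in macrophages, against 3.96, 5.54 and 4.30 in granulocytes. Those groups overlapped (0.82, adjusted p = 0.0992), while the dimmer probe set was called (0.78, adjusted p = 0.00593). Without granulocyte pool 2, the highest of its group, the main difference was 1.28 with an adjusted p of 0.00383. The mean of 7 B cell markers was 3.92 to 4.20 in macrophages and 4.001 to 4.69 in granulocytes. Against wild-type MDPs, macrophages were higher in Cd22 by 1.69 (adjusted p = 0.00242), and granulocytes differed by 0.87 (adjusted p = 0.0573). Without granulocyte pool 1, the lowest of its group, that difference was 1.19 with an adjusted p of 0.0141. Both leave-outs removed the granulocyte pool that narrowed the difference most, and with all arrays neither difference was called.

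**Figure D2:**
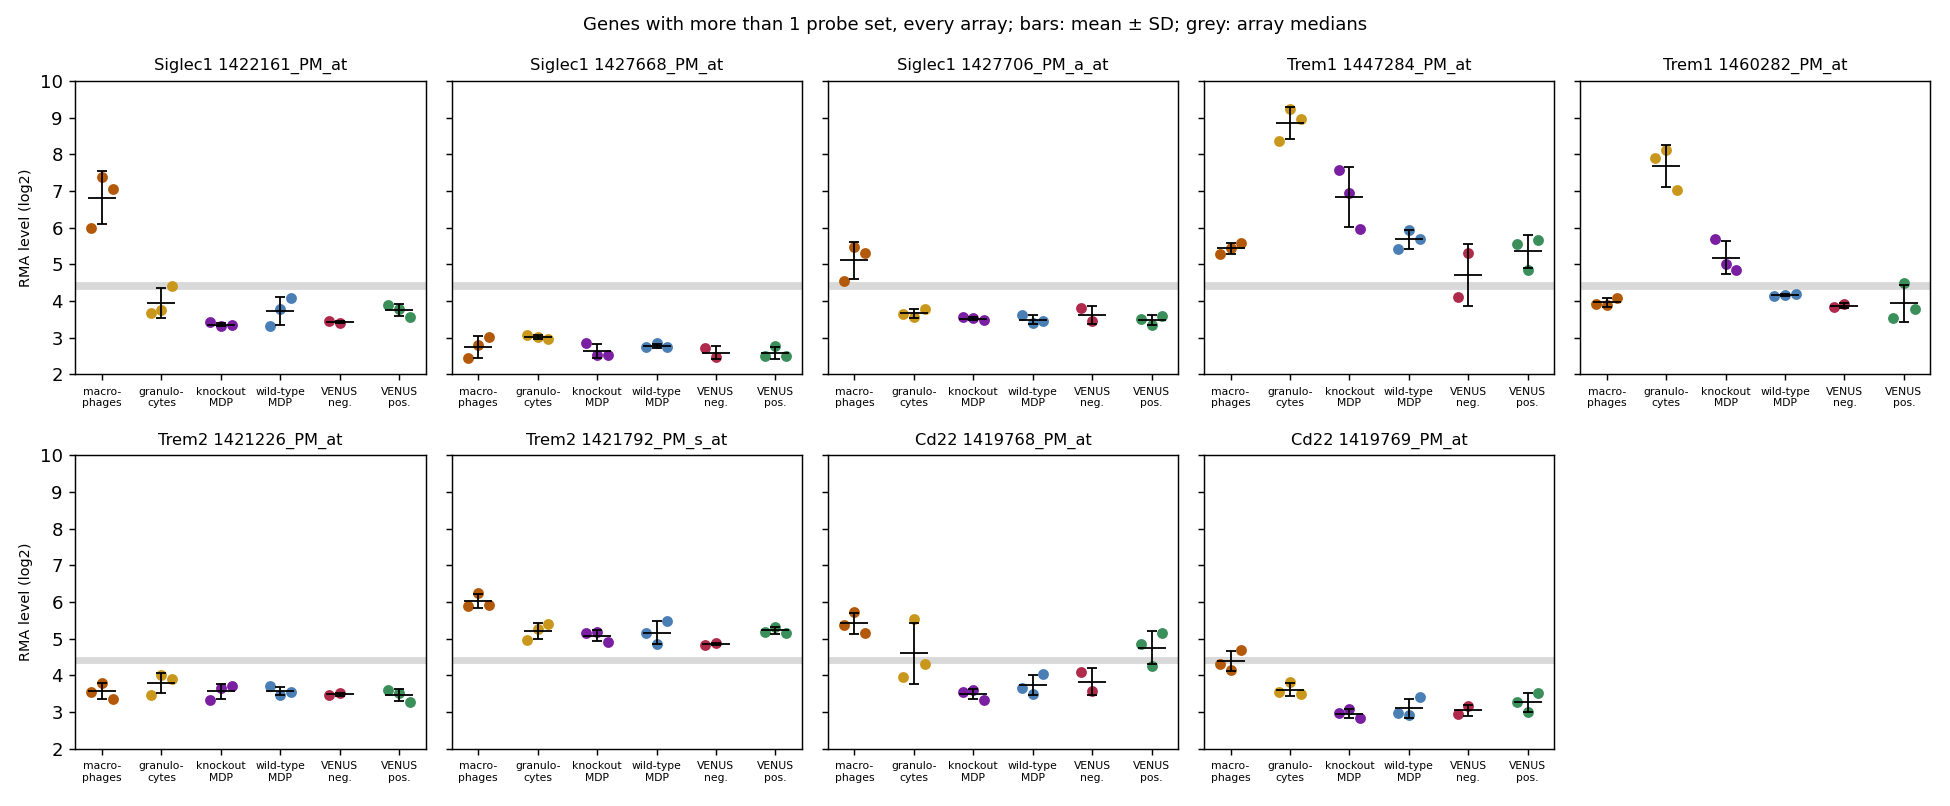
RMA levels (log2) of each probe set of the 4 genes with more than 1, one point per array, with group mean ± SD and array medians in grey. Both Trem1 probe sets were highest in granulocytes, while 1 of 3 Siglec1 and 1 of 2 Trem2 probe sets stayed below the array medians in every group.

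Trem1 encodes an activating receptor of neutrophils and monocytes that amplifies inflammatory responses. Its main probe set had 7.58, 6.94 and 5.95 in knockout-labelled MDPs, against 5.43, 5.95 and 5.69 in wild-type MDPs. The lowest knockout-labelled pool and the highest wild-type pool were equal to 2 decimals, and the difference of 1.14 (SE 0.39, 95% interval 0.30 to 1.98, 2.20-fold) did not pass the test (limma adjusted p = 0.352). The second probe set gave 5.69, 5.02 and 4.83 in knockout-labelled MDPs, against 4.12, 4.16 and 4.18 in wild-type MDPs (1.03, adjusted p = 0.202). Granulocytes were highest with 8.36, 9.24 and 8.96, and macrophages, with 5.28, 5.45 and 5.57, were 10.7-fold lower (adjusted p = 1.63e-05). Macrophages and wild-type MDPs differed by -0.25 (95% interval -1.09 to 0.59, adjusted p = 0.774).

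Trem3 encodes a mouse TREM that signals through DAP12. It had 8.78, 8.84 and 9.30 in knockout-labelled MDPs, against 5.91, 6.00 and 7.62 in wild-type MDPs. Every knockout-labelled pool was above every wild-type pool, and the mean difference was 2.46 (SE 0.45), or 5.51-fold, which became 3.01 without wild-type pool 3. Reporter progenitors overlapped, with 5.38 and 4.59 in VENUS-negative MDPs, against 5.92, 5.64 and 4.57 in VENUS-positive MDPs (-0.40, 95% interval -1.48 to 0.69, limma adjusted p = 0.833). Macrophages had 7.30, 7.46 and 7.02, against 10.61, 9.67 and 9.49 in granulocytes, which was 6.33-fold lower (adjusted p = 5.45e-04). Macrophages and wild-type MDPs differed by 0.75 (adjusted p = 0.327), or by 1.30 with an adjusted p of 0.0389 without wild-type pool 3. Trem2, a lipid-binding receptor of macrophages, microglia and osteoclasts, had the narrowest range of the TREMs. Macrophages had 5.89, 6.24 and 5.93, against 4.97, 5.25 and 5.41 in granulocytes, a 1.75-fold difference (adjusted p = 0.00267), which the dim second probe set did not show (-0.22, adjusted p = 0.360).

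Neutrophil markers are given beside the granulocyte-high genes, and their part in the progenitor differences was not tested. Their mean over 10 genes was 6.72, 6.04 and 6.64 in knockout-labelled MDPs, against 4.84, 4.59 and 8.34 in wild-type MDPs, and 11.97 to 12.32 in granulocytes. Of the 10 markers, 1, Mmp8, was called higher in knockout-labelled MDPs and none lower, where 0.784% of all genes were called. The median difference was 0.04. Without wild-type pool 3 the median was 1.23 and 3 of the 10 were called higher, with none lower. Wild-type pool 3 had the highest marker mean among the MDPs, and its levels were 6.26 for Siglece and 7.62 for Trem3. Erythroid and megakaryocyte markers also differed, with a mean over 9 genes of 3.78 to 3.97 in knockout-labelled MDPs, against 4.72 to 7.14 in wild-type MDPs. Of these 9, Car1 and Hba-a1 were called lower and none higher, with a median difference of -1.30, or -0.93 without wild-type pool 3, and their part in the results was likewise not tested.

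**Figure D3:**
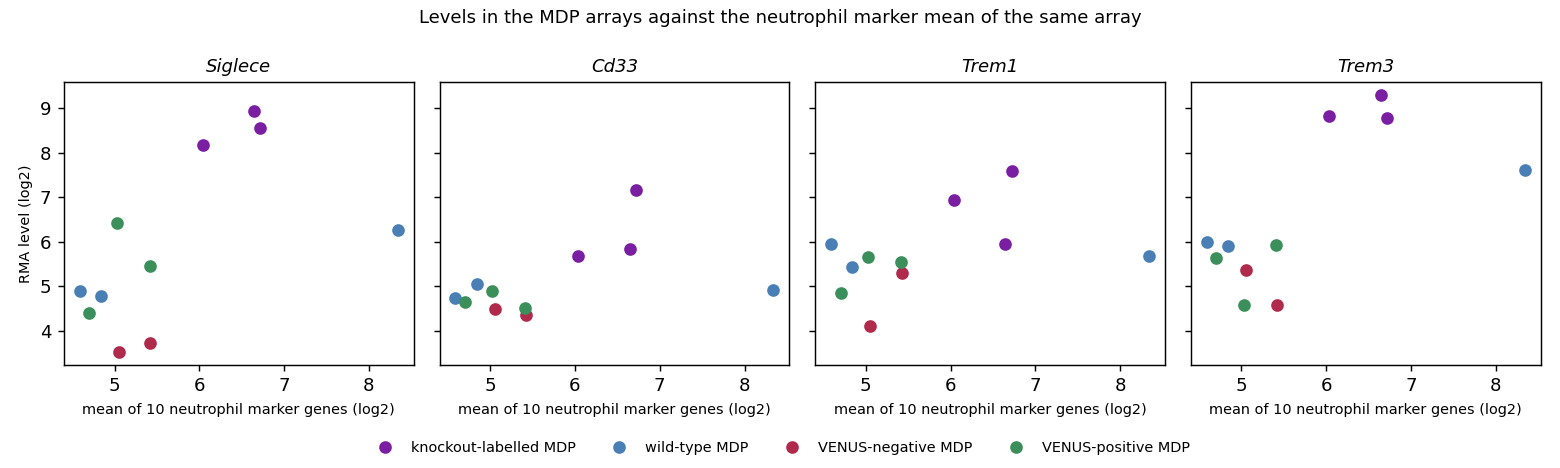
RMA levels (log2) of 4 genes in the 11 MDP arrays against the mean level (log2) of 10 neutrophil markers in the same array. The 3 knockout-labelled arrays lay highest for Siglece and Trem3, which were chosen by their difference from wild-type MDPs, and for Cd33. Wild-type pool 3, at 8.34 on the horizontal axis, lay below them for these genes. For Trem1 the lowest knockout-labelled array and the highest wild-type array were nearly level.

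Tyrobp, the shared adaptor, lay on average at the 95.5th percentile of the array in VENUS-negative MDPs, against the 99.4th or higher in every other group. It had 9.29 and 9.04 in VENUS-negative MDPs, against 11.54, 11.43 and 11.62 in VENUS-positive MDPs, and fell by 2.36 on the log2 scale (SE 0.13, 95% interval -2.65 to -2.08), or 5.14-fold (limma adjusted p = 1.38e-07). In the other progenitors it had 11.86, 11.78 and 11.72 in knockout-labelled MDPs, against 11.41, 11.50 and 11.75 in wild-type MDPs, and these groups overlapped (0.24, 95% interval -0.02 to 0.49, adjusted p = 0.676). The 2 progenitor differences differed from each other by 2.60 (SE 0.18, 95% interval 2.22 to 2.98, adjusted p = 2.19e-06). Macrophages had 12.47, 12.55 and 12.48 and granulocytes 12.65, 12.72 and 12.62, with no call between them (-0.16, adjusted p = 0.358). Both exceeded wild-type MDPs, macrophages by 1.93-fold (adjusted p = 4.46e-05) and granulocytes by 2.16-fold (adjusted p = 3.89e-06). Of 13 macrophage and monocyte markers 5 were lower in VENUS-negative MDPs and none higher, where 5.40% of all genes were called. Their list mean was 3.92 and 3.9998, against 4.94 to 5.25 in VENUS-positive MDPs. Of 9 erythroid and megakaryocyte markers 6 rose, with a list mean of 8.50 and 8.04 in VENUS-negative MDPs, against 4.45 to 4.77 in VENUS-positive MDPs. The part of both marker lists in the Tyrobp difference was not tested.

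Counted together, the members had few calls among progenitors and many in comparisons with mature cells, as did all genes. The differences that chose the members are left out of the progenitor counts, while their genes stay in the other counts. Between knockout-labelled and wild-type MDPs none of the 7 tested genes was called by limma (2 at an unadjusted p under 0.05), where 0.784% of all genes were called, and the median difference of those 7 was 0.24 against 0.01 over all genes. Between VENUS-negative and VENUS-positive MDPs 1 of 8 was called, Tyrobp, where 5.40% of all genes were. Between macrophages and granulocytes 2 were called higher and 5 lower, of 9, where 29.6% of all genes were called, and the median was -2.66 against -0.09 over all genes. Macrophages against wild-type MDPs gave 6 higher and 1 lower (22.4% of all genes called, median 0.95 against 0.00), and granulocytes against wild-type MDPs gave 6 higher and none lower (43.8%, median 2.92 against 0.10). For the difference between the 2 progenitor contrasts 1 of 6 was called, Tyrobp, where 3.12% of all genes were. The comparisons with wild-type MDPs share those 3 arrays, which also took part in choosing Siglece and Trem3. Calls of these genes against wild-type MDPs are therefore not independent of that choice.

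**Figure D4:**
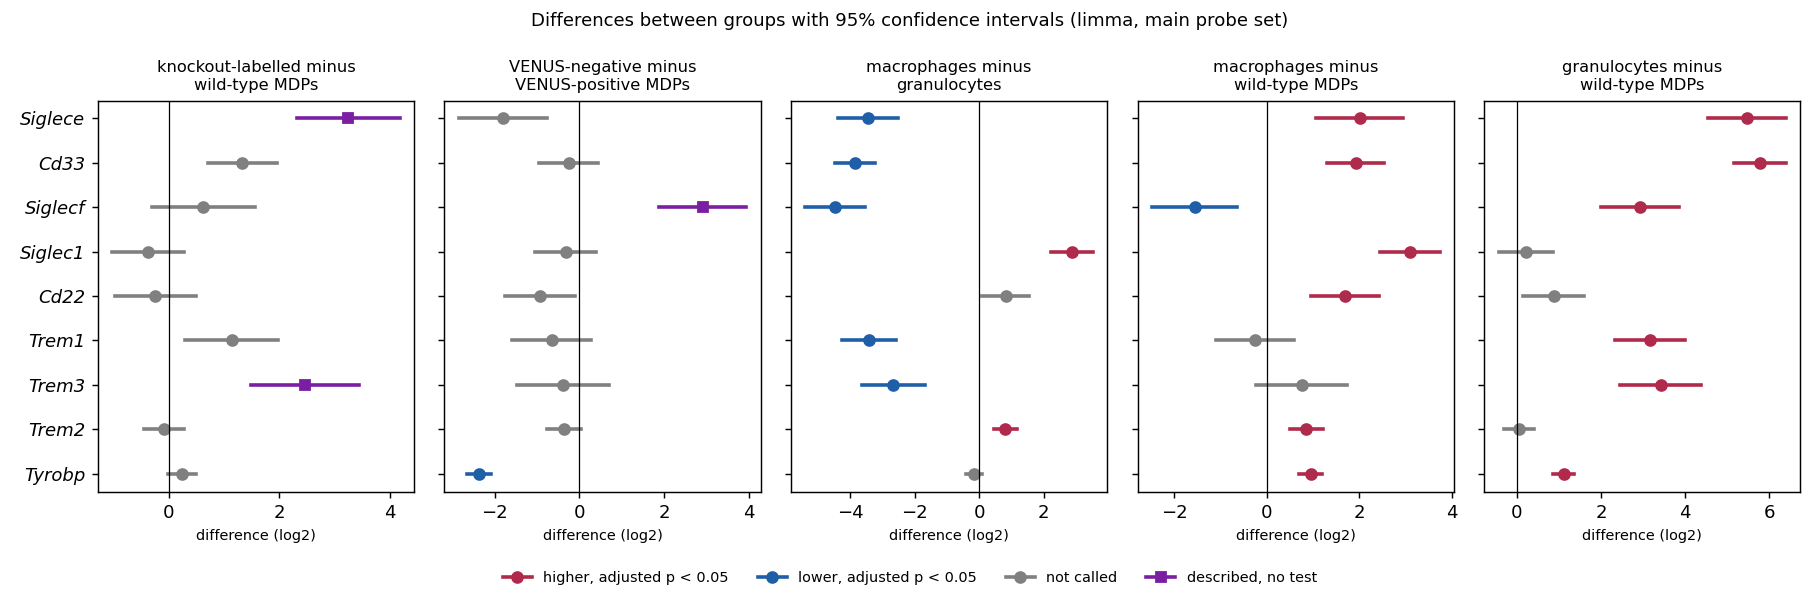
Differences in RMA level (log2) with 95% intervals from limma for the 9 genes in 5 comparisons; squares are the 3 differences that chose the members. Intervals for Siglece, Cd33, Siglecf, Trem1 and Trem3 lie wholly left of 0 in macrophages minus granulocytes, and Tyrobp alone is called in VENUS-negative minus VENUS-positive MDPs.

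The partners of these receptors were measured from 7 lists, which held 52 genes with a probe set. In knockout-labelled against wild-type MDPs, none of 13 ITAM signalling genes or 7 genes for phosphatases and other brakes was called. These lists are called ITAM genes and ITIM genes below, though not every product carries or binds such a motif. Nor was any of 5 other DAP12 receptors, 3 other TREM genes or 2 other Siglecs called. Over all genes, 0.784% were called in this comparison. St6gal1, which adds the sialic acid linkage that CD22 binds, rose by 2.74 (limma adjusted p = 0.0126), and Clu, which encodes clusterin, rose by 1.92 (adjusted p = 0.0338). The DAP12-signalling receptor Clec5a had a mean of 7.56 in knockout-labelled MDPs, against 5.35 in wild-type MDPs (2.21, adjusted p = 0.0868), short of the threshold.

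In VENUS-negative against VENUS-positive MDPs, 5 of 13 ITAM genes and 2 of 7 ITIM genes were lower and none higher. Over all genes, 5.40% were called there. Fcer1g, the other ITAM adaptor of myeloid receptors, fell by 1.96 (limma adjusted p = 1.82e-04), and Ptpn6, which encodes the phosphatase SHP-1, fell by 1.10 (adjusted p = 0.0283). Of 5 other DAP12 receptors, Cd300lb (-2.47, adjusted p = 7.99e-05) and Klrk1 (-1.94, adjusted p = 0.0235) were lower. Hcst, the adaptor gene beside Tyrobp, averaged 5.80 ± 0.27 in VENUS-negative MDPs (SD, n = 2) and 6.01 ± 0.54 in VENUS-positive MDPs (SD, n = 3), a difference of -0.21 with limma's adjusted p = 0.874.

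In granulocytes against wild-type MDPs, 8 of 13 ITAM genes were higher and 1 lower, and all 5 other DAP12 receptors were higher. Over all genes, 43.8% were called in that comparison. NK and T cell markers had a list mean of 5.93 to 6.42 in granulocytes, against 4.33 to 5.37 in wild-type MDPs. Of these 8 markers 4 were called higher and 0 lower, and their part in the receptor differences was not tested. Syk, the kinase recruited by DAP12, rose by 2.80, and the Src-family kinase Fgr by 6.70. In macrophages 6 of 13 ITAM genes and 6 of 7 ITIM genes were higher than in wild-type MDPs, with none lower (22.4% of all genes called). Fgr was higher by 6.23 and Ptpn6 by 1.68. Between macrophages and granulocytes, Treml4 was higher by 1.39 and Treml2 lower (-3.18) in macrophages, and Apoe, whose product binds TREM2, was higher by 2.35.

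Of 15 genes that make, attach or trim sialic acid, the Siglec ligand, 3 were higher and 3 lower in macrophages than in granulocytes. Over all genes, 29.6% were called in that comparison. Nans, a sialic acid synthase, was higher by 2.31, and the sialyltransferase genes St3gal6 (-4.93) and St3gal5 (-2.64) were lower, with Cmah, which converts a sialic acid into its glycolyl form, also lower (-3.93). In granulocytes against wild-type MDPs 6 of the 15 were higher and 4 lower (43.8% of all genes called), among them St3gal6 by 4.58 and Nans at -3.59. In VENUS-negative against VENUS-positive MDPs, St8sia4, a polysialyltransferase, was the single call (-1.90, limma adjusted p = 4.47e-04), where 5.40% of all genes were called.

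The genes most like each member were ranked by Pearson's r over the 17 arrays, which share groups, among 8031 genes. Siglece was closest to Fosl2 (0.955), Ccr1 (0.955) and Mmp8 (0.947), and Trem3 to Chd7 (0.962), Mmp8 (0.959) and Ccr1 (0.946), so Ccr1 and Mmp8 stood near both. Cd33 was closest to Cebpd (0.986), and Siglec1 to Ace (0.972). Siglecf was closest to Ifitm1 (0.925), and Tyrobp to Rbm47 (0.966).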

How the data were processed

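Sorted-cell RNA from 17 pools in 6 groups was measured on Affymetrix arrays. The authors deposited log2 levels made with RMA in Affymetrix Expression Console, per the submitters' processing notes, which give no versions. RMA brings all arrays to 1 distribution, so a level is relative to its array. The scanner files were not used here. Groups came from the sample labels.

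A single limma fit (version 3.58.1, R 4.3.3) held 6 group means over all 17 arrays, with p-values adjusted by Benjamini-Hochberg over 45037 probe sets and a threshold of 0.05. The fitting step was tested on simulated data. A gene was represented by its single-symbol probe set with the highest mean (17097 genes). Of the probe sets, 28898 had 1 symbol, 551 several and 15588 none. Folds are given only where both means exceeded the array medians. Listed genes named in the text are up to 4 called per list and comparison with the largest difference, and Clec5a, Hcst and Ms4a2 were chosen after their values were seen. Alternatives were another normalisation, a dim-probe filter, gene-level fits, only the compared arrays, the compared arrays with a replicate block and leaving out each pool. Marker list medians without wild-type pool 3 were chosen after seeing the data. The members and lists were chosen with earlier results of these data known. Dendritic cell samples were not analysed here.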

Additional observations from a re-analysis of the deposited data

Results flagged for a closer look

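Tyrobp differed between the progenitor contrasts: its knockout-minus-wild-type difference exceeded its VENUS-negative-minus-VENUS-positive difference by 2.60 on the log2 scale (limma adjusted p = 2.19e-06). Siglece lay in opposite directions in the 2 contrasts, higher in every knockout-labelled pool than in any wild-type pool and lower in both VENUS-negative pools than in any VENUS-positive pool, and its 2 differences stood 5.05 apart. Its VENUS difference of -1.81 missed the threshold (limma adjusted p = 0.0510), and the VENUS-negative mean of 3.63 was below the array medians. That difference was not tested, because the first contrast chose the gene.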

How the results depend on the processing

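No tested member value that was called, in the main fit or under an alternative, changed sign. Of the member values under alternatives, 1069 were counted as unchanged, 19 newly passed the threshold and 12 lost it. The 1069 include the described differences, which had no test and shifted by less than the largest SD of the compared groups. A small uncalled difference could change sign and still count among those without a change. Of the 259 probe sets called between knockout-labelled and wild-type MDPs, 134 were main probe sets, and a fit with 1 probe set per gene called 155. Over all probe sets, calls were 46 with only the compared arrays and 177 to 278 with a pool left out. Of the 1998 between VENUS-negative and VENUS-positive MDPs, 924 were main probe sets, against 1003 called with 1 probe set per gene. Over all probe sets, calls there were 536 with only the compared arrays and 1535 to 1776 with a pool left out. With 1 probe set per gene, macrophages against granulocytes had 5337 calls, against 5061 for the same probe sets in the main fit. Macrophages against wild-type MDPs had 4038 (3832 in the main fit) and granulocytes against wild-type MDPs 7720 (7496). Over all probe sets, the main fit called 11214, 8511 and 17289 in these comparisons. Leaving out a pool gave 8262 to 12264, 6522 to 7455 and 14154 to 17694 calls in these, with 7 to 8, 6 to 7 and 6 to 7 member genes. Of the 1059 calls for the difference between contrasts, 534 were main probe sets, against 615 called with 1 probe set per gene. Over all probe sets, calls were 673 with only the compared arrays and 827 to 1143 with a pool left out.

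Member genes called between knockout-labelled and wild-type MDPs were 1 in place of 0 with 1 probe set per gene or the dim-probe filter (Cd33), and 0 to 1 with a pool left out. Between VENUS-negative and VENUS-positive MDPs they were 2 in place of 1 with 1 probe set per gene, the dim-probe filter, median centring, repeated quantile normalisation or a trended robust fit (Siglece added), and 1 to 2 with a pool left out. For the difference between contrasts they were 1 to 2 with a pool left out (Cd33 added without knockout pool 1 or 2, Trem1 without knockout pool 3).

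The labels do not say whether same-numbered pools belong together. Same-numbered deviations correlated between -0.07 and 0.12, but with 2 or 3 pools per group this cannot tell whether pools shared mice or a sort. A further fit used only the compared arrays and added the replicate number as a block, so it lost arrays as well as gaining block terms. Its limma calls were 2 between knockout-labelled and wild-type MDPs (4038 at an unadjusted p under 0.05). They were 0 between VENUS-negative and VENUS-positive MDPs (5182 unadjusted) and 204 for the difference between contrasts. The counts with only the compared arrays and no block are given above. That fit left 0 member genes called in the VENUS comparison (4 unadjusted), with Tyrobp at -2.32 and a limma adjusted p of 0.134. Signal over background limits the dim probe sets of Cd22, Siglec1 and Trem2.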
